A study of Mus musculus with 6 samples.

Results

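Genes whose products modify, fold, export and crosslink collagen were compared between mouse chondrocytes that lack miR-34a and wild-type chondrocytes. The members were the rows whose symbol matched a fixed pattern of gene names for collagen-modifying enzymes, chaperones of the endoplasmic reticulum (ER), the Sec61 channel, the COPII export coat, the lysyl oxidases and the unfolded protein response. This gave 54 of 10189 measured genes. The pattern uses names and no measured value, but it was drawn up with earlier results of these data known. Creb3l1, Creb3l2 and Atf6b, which the pattern also takes, are not analysed here.

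Fibrillar collagen is made in the ER, where chains enter through the Sec61 channel, prolines and lysines are hydroxylated, some hydroxylysines receive sugars, and the collagen chaperone HSP47 (Serpinh1) binds the folded triple helix. COPII carriers, assisted by the cargo receptor TANGO1 (Mia3), take procollagen to the Golgi, and outside the cell proteinases remove the propeptides before lysyl oxidases crosslink the fibrils. When unfolded protein builds up, the sensors IRE1 (Ern1), PERK (Eif2ak3) and ATF6 signal through XBP1, ATF4 and CHOP (Ddit3), and cartilage cells, which secrete large amounts of matrix, are known to depend on this system.

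The 3 KO samples came from mice with a global homozygous deletion of the miR-34a gene (genotype MiR-34a -/-, model Mir34atm1.2 Mrl), and the 3 WT samples from wild-type mice. All were on the C57BL/6 strain and 5 weeks old, and received no treatment. Cells were released with collagenase from pooled hip and knee articular cartilage, grown in culture until confluent, and their total RNA was sequenced. Whether the samples of a group are separate mice or separate cultures is not given in the labels, and the tests speak only to the spread among these 6 samples, which may be technical. The deletion itself was not analysed here.

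Recovered reads per library ranged from 989217 (WT 2) to 5266617 (WT 1), of which WT 1 had 59.1% in the ribosomal RNA gene Rn45s and 18.8% in Lars2. Without Rn45s, Lars2 and Mir6236 the range was 947081 (WT 2) to 1772185 (KO 1). Of 22 listed chondrocyte markers 18 were measured, and Matn1, Matn4, Cnmd and Snorc were not. The measured 18 were present in every library, apart from Cytl1 at 0 in WT 2. Their summed level was 4148 to 7771 CPM in KO and 2713 to 4113 CPM in WT. CPM are read counts scaled to library sizes that the authors had adjusted by TMM normalization. On average 16 of 18 were higher in KO (13 of 18 without KO 1). The 17 macrophage markers summed to 1158 CPM (KO 1), 16213 CPM (KO 2) and 3878 CPM (KO 3), and to 5762 to 6707 CPM in WT. KO 1 was the lowest library for 17 of these 17 genes, with Cd74 at 0, while KO 2 was the highest for 13. On average 14 of the 17 were lower in KO, 5 of 17 without KO 1 and 17 of 17 without KO 2. The 8 mural cell markers summed to 278 to 512 CPM in KO and 597 to 767 CPM in WT, with 6 lower on average in KO. In such bulk samples fewer cells of a type and less RNA per cell cannot be told apart, and the part of these markers in the results below was not tested.

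The mature miRNA that the KO mice lack is shown because its seed was searched for in the members. In the GRCm38.p6 build it lies at chr4:150068473-150068494 on the plus strand (RefSeq sequence, seed bases 2 to 8 in capitals).
mmu-miR-34a-5p: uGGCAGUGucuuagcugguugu

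No member passed the test between KO and WT. With limma on log2(CPM + 0.5) and adjustment over all 10189 genes, 0 members were called higher and 0 lower, where 0% and 0.00981% of all genes were called. The lowest limma adjusted p of a member was 0.281. At an unadjusted limma p below 0.05, Pcolce2 was higher in KO, and Loxl2 and Atf4 were lower, which is 1 and 2 of 54 members against 4.64% and 6.4% of all genes. Without KO 2 the higher members were 5 (Fkbp10, Lox, Pcolce, Pcolce2 and Sec31a) and the lower 2 (Loxl1 and Loxl2), against 4.7% and 7.8% of all genes. Without WT 1 they were 3 and 1 (5.14% and 5.89% of all genes), and with both left out 6 and 1 (5.12% and 7.08%). The groups did not overlap, with KO above WT, for 4 members (Pcolce, Pcolce2, Plod1 and Ern1), or 7.41%, where 8.82% of all genes had that pattern. Ern1 was at most 7.04 CPM in WT, while the second highest value of every measured row was at least 7.35 CPM. It could therefore be measured only where KO was high. KO lay below WT for 2 members (Loxl2 and Atf4), where 9.57% of all genes did. For both patterns the members' share was below that of all genes. DESeq2 and edgeR on recovered reads also called 0 members at an adjusted p below 0.05, and DESeq2 gave Pcolce2 no adjusted value.

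Means of log2(CPM + 0.5), to which higher and lower refer here and below, were higher in KO for 33 members (61.1%) and lower for 21, with a median log2 fold change of 0.17, against 0.02 and 51.4% higher over all genes. Under quantile normalization the split was 39 and 15. Of the 27 members with a mean of at least 100 CPM, 13 were higher and 14 lower, with a median of −0.01. KO 1 was the highest library for 25 members, WT 2 the lowest for 19 and KO 2 the lowest for 16. The members' median difference from the WT mean was 0.31, 0.04 and 0.03 on the log2 scale in the KO libraries 1 to 3. With KO 1 left out, the median log2 fold change of the members was 0.02 and 29 were higher, and without WT 2 it was 0.07 with 30 higher. KO 1 also had the highest chondrocyte and lowest macrophage marker sums and the most reads outside Rn45s, Lars2 and Mir6236. Their part in its higher levels was not tested.

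**Figure D1:**
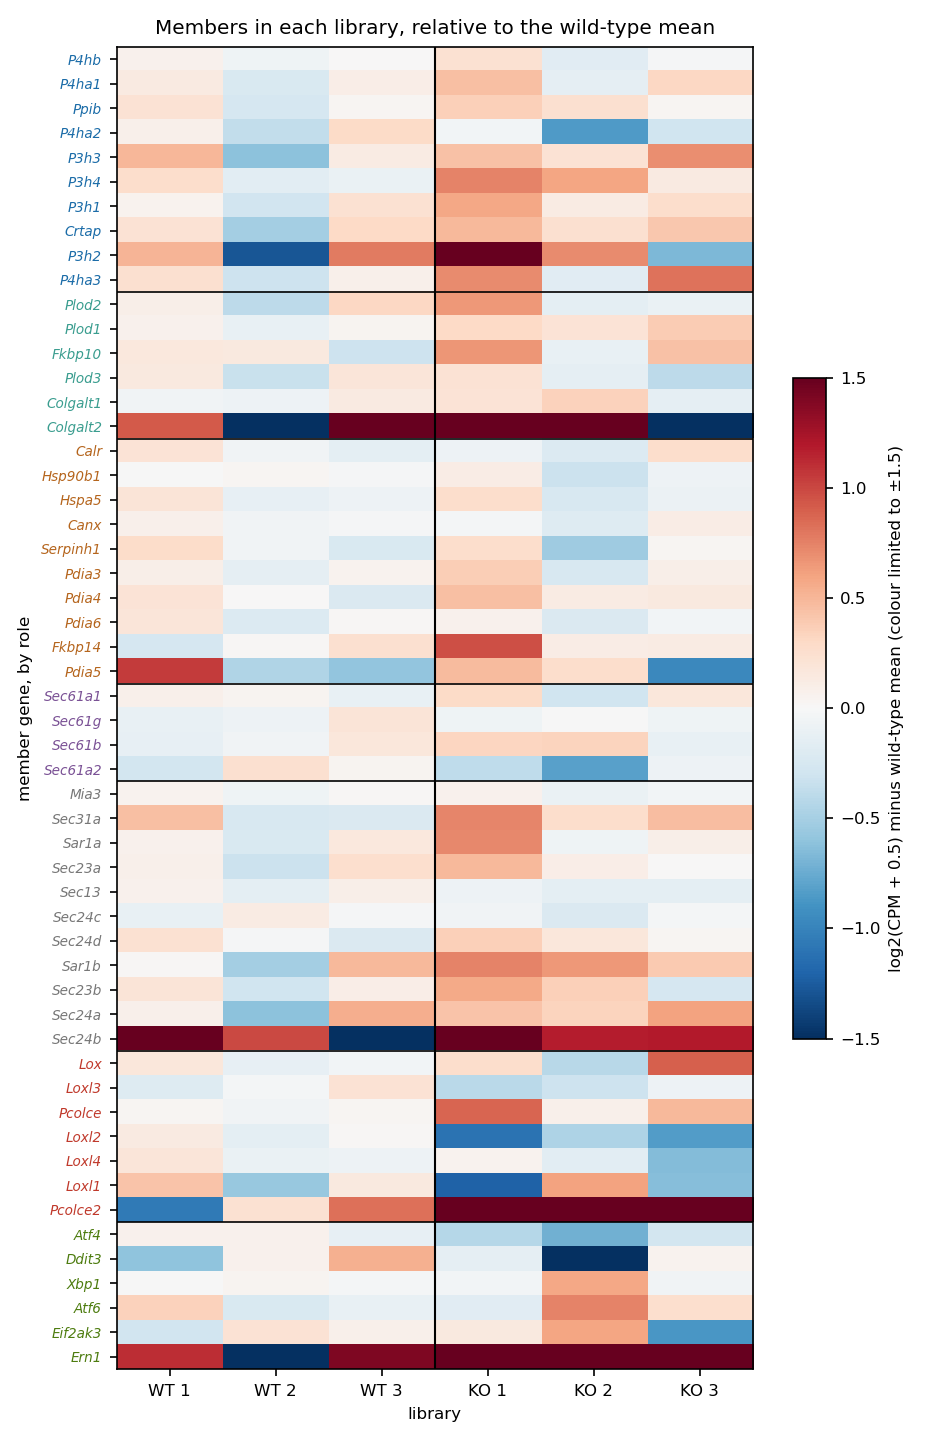
Each of the 54 members (rows, by role) in each library (columns), coloured by log2(CPM + 0.5) minus the mean of the 3 WT libraries, with colours limited to 1.5 either way. The KO 1 column is red for most enzymes and COPII genes, and its median over the members was 0.31.

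The measured limits on each member differed with its level. The 95% interval of the fold change stayed within 1.5-fold either way for 12 members and within 2-fold for 37. Its median width was 1.07 log2 units, against 1.61 over all genes. Per kilobase of exon the most abundant members were Calr at 569.7 CPM per kb, P4hb at 322, Serpinh1 at 319.6, Hsp90b1 at 302 and Hspa5 at 224, and the least was Ern1 at 0.841. Reads were 0 in a library for Sec24b, Colgalt2 and Ern1.

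**Figure D2:**
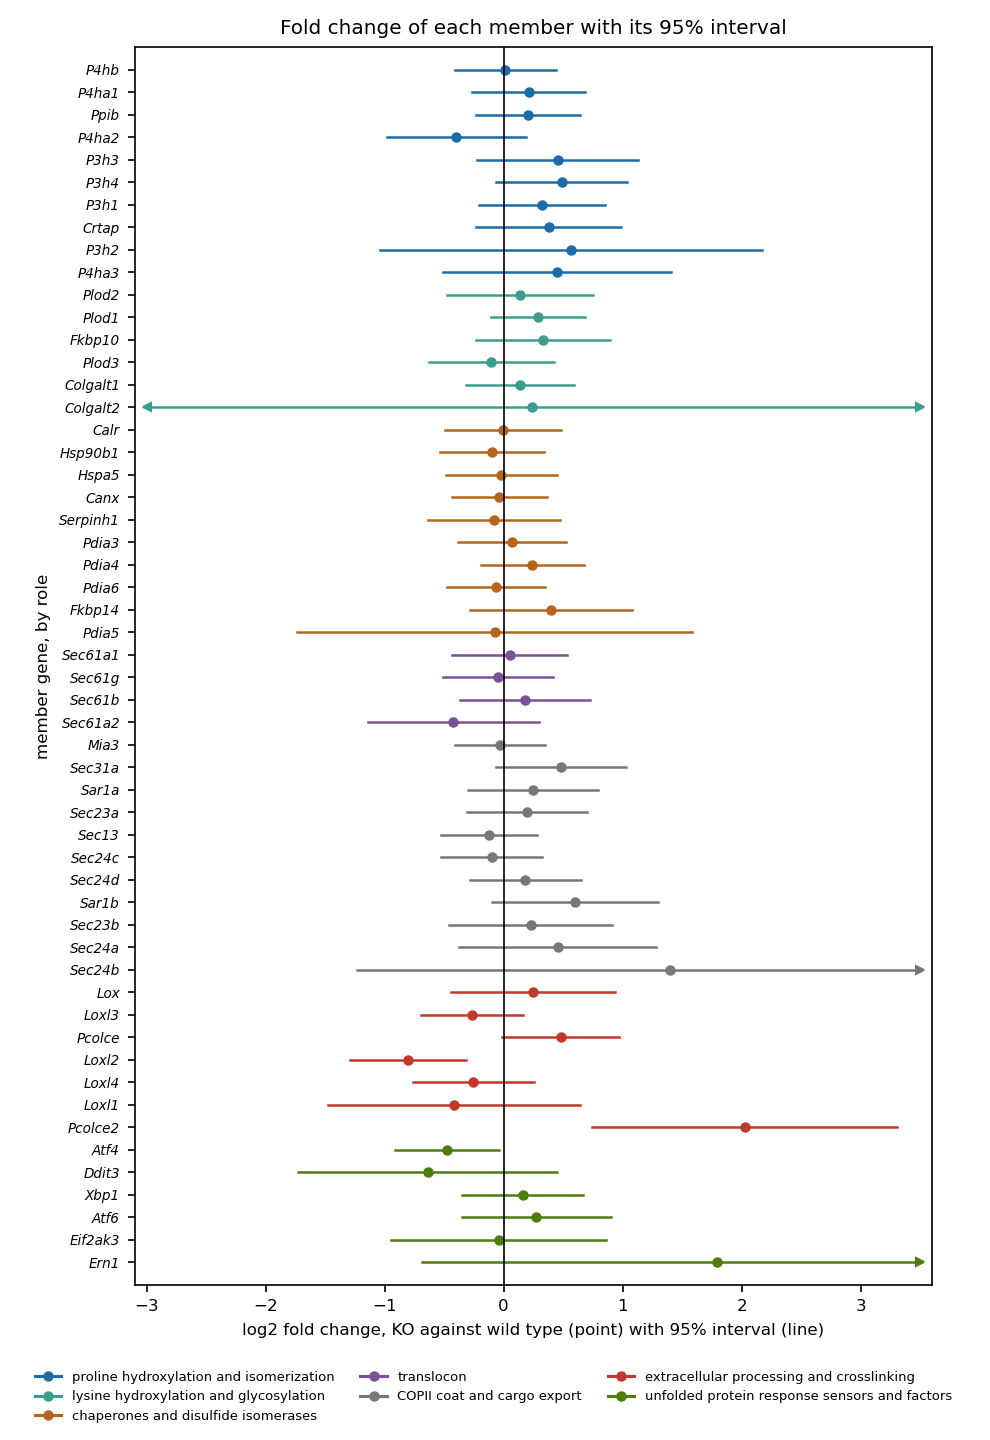
Log2 fold change of KO against WT for each member (point) with its 95% interval from limma (line), coloured by role. Arrowheads mark intervals that run past the axis, and only those of Pcolce2, Loxl2 and Atf4 leave out 0.

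Of the 7 genes that act on collagen outside the cell, 3 were higher and 4 lower in KO, with a median log2 fold change of −0.25. With 1 library left out that median ran from −0.28 to −0.02, the latter without KO 1. They include 2 of the 3 members at an unadjusted p below 0.05. Pcolce2 (chr9:95637601-95698096, plus strand, GRCm38) encodes an enhancer of the proteinase that removes the C-terminal propeptide. It had 56.5, 23.5 and 20.8 CPM in the KO libraries and 3.14, 8.38 and 12.9 CPM in the WT libraries (here and below in the order 1, 2, 3). Pcolce2 was higher in every KO library than in any WT library, and KO 1 was more than 2 times as high as the other KO libraries. The log2 fold change was 2.02 (SE 0.57, 95% interval 0.75 to 3.30, limma unadjusted p = 0.00579, limma adjusted p = 0.282, n = 3 per group). It was 1.58 without KO 1, and the WT values rested on only 5, 11 and 22 reads.

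Pcolce, the related and more abundant enhancer gene, had 406, 235 and 312 CPM in KO and 226, 214 and 227 CPM in WT. The WT libraries lay close together and the KO libraries above them, KO 2 only just. The difference in log2 means was 0.48 (SE 0.22, limma unadjusted p = 0.0563, adjusted over all genes 0.464), and 0.28 without KO 1. Exons of Pcolce share 112 bases with the opposite-strand gene Gm36266.

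Of the 5 lysyl oxidase genes, Lox had a higher KO mean and the other 4 lower, under each of the scalings tried. Loxl2 (chr14:69609068-69695834, plus strand) encodes a lysyl oxidase with scavenger receptor domains that also acts on basement membrane collagen. It had 77.5, 122 and 93.6 CPM in KO and 184, 152 and 169 CPM in WT. All KO libraries were below all WT libraries, and KO 2 came nearest. The log2 fold change was −0.80 (SE 0.22, 95% interval −1.29 to −0.32, limma unadjusted p = 0.00446, limma adjusted p = 0.281, n = 3 per group). Loxl2 stayed at an unadjusted p below 0.05 under every alternative run, with log2 fold changes of −0.65 to −0.97, and its DESeq2 adjusted p was 0.0793. Of its exon bases, 301 overlap the opposite-strand gene Gm27177.

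Lox, the most abundant family member per length at 187 CPM per kb, had 943, 587 and 1463 CPM in KO and 881, 721 and 759 CPM in WT. KO 3 was far above and KO 2 below every WT library, so the groups overlapped. Its log2 fold change was 0.25 (SE 0.31, 95% interval −0.44 to 0.94), and −0.08 without KO 3. Loxl3 had 439, 472 and 554 CPM in KO and 512, 572 and 678 CPM in WT, a log2 fold change of −0.26 (SE 0.19, 95% interval −0.69 to 0.16). Its exons share 535 bases with Htra2 on the other strand. Loxl4 (−0.25, SE 0.23) and Loxl1 (−0.42, SE 0.47) also had lower KO means, and Loxl1 had 12.98, 47.0 and 19.6 CPM in KO, a range that took in all of WT.

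**Figure D3:**
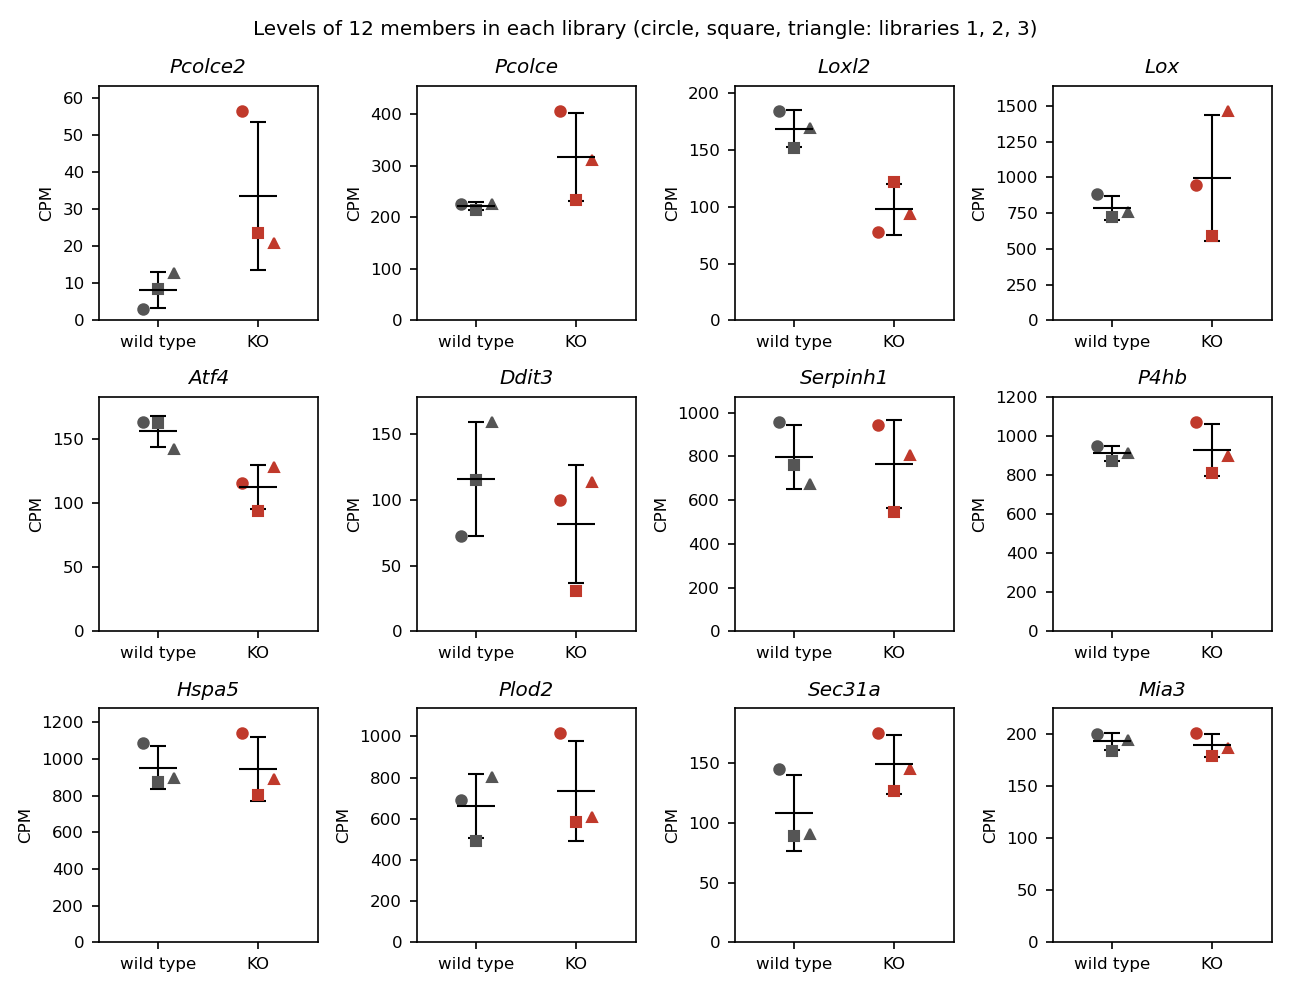
CPM of 12 members in each library (WT grey, KO red, symbols for libraries 1, 2 and 3), with the mean (bar) and SD (whiskers) of 3 libraries. Pcolce2 and Pcolce lie higher in KO and Loxl2 and Atf4 lower without overlap, while the groups overlap for the other 8.

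A 7-base match to the miR-34a seed, CACTGCC, was present in the longest annotated 3′ UTR of 8 members (14.8%), where 17.9% of 9339 genes with an annotated 3′ UTR held one. The 8 were Ern1, Loxl1, Loxl2, Loxl3, P3h1, Plod1, Sar1a and Sec61a1. Of these, 5 were higher and 3 lower in KO, and the 3 lower ones were the lysyl oxidases. The 5 higher ones include Ern1, which could be measured only where KO was high. Their median log2 fold change was 0.15, close to the 0.17 of all members. A second form, ACTGCC followed by A, was searched for as well. It was present without CACTGCC in 4 other members (7.41%), against 6.37% of the 9339 genes. They were Pcolce2 (2.02 on the log2 scale), Sec23a (0.20), Pdia6 (−0.06) and Sec61a2 (−0.42). The CACTGCC matches in the 3 lysyl oxidase genes and in Plod1 are shown with the 7 bases in capitals, in the GRCm38 build. Each line runs 5′ to 3′ on the strand of the gene. A match is a description of the letters and was not tested as a binding site.
Loxl2, chr14:69693420-69693446, plus strand: actccccagaCACTGCCgtgtgtccct
Loxl1, chr9:58287861-58287887, minus strand: gcccacctgcCACTGCCaccctggaga
Loxl3, chr6:83051519-83051545, plus strand: gccggatccgCACTGCCagctgtgatt
Plod1, chr4:147910657-147910683, minus strand: cgttgacaacCACTGCCcagcagccct

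Plod1, with the same 7 letters, had KO values above WT, in contrast to the 3 lysyl oxidase genes, whose KO means were lower. Plod1 encodes lysyl hydroxylase 1, which hydroxylates helical lysines that take part in crosslinks. It had 140.4, 132 and 149 CPM in KO and 120.0, 106 and 118 CPM in WT. The groups did not overlap, but the log2 fold change was 0.29 (SE 0.17, 95% interval −0.10 to 0.69, limma adjusted p = 0.549).

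The other lysine-modifying genes also included none past the test. Of 6, 5 were higher and 1 lower (Plod3), with a median of 0.19. Without KO 1 the split was 3 and 3 with a median of −0.01, and without WT 2 it was 3 and 3 with a median of 0.02. Plod2, the lysyl hydroxylase of collagen telopeptides and by far the most abundant of the 6, had 1016, 585 and 606 CPM in KO and 689, 492 and 801 CPM in WT. Only KO 1 exceeded the WT range, and the log2 fold change was 0.14 (SE 0.27). Fkbp10, which encodes an ER peptidyl-prolyl isomerase needed for telopeptide lysine hydroxylation, had 163, 95.05 and 139 CPM in KO and 115, 114 and 82.7 CPM in WT (0.33, SE 0.25), with KO 2 inside the WT range.

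The proline-modifying genes had higher KO means in 9 of 10 members, with a median of 0.35. None reached an unadjusted p below 0.05, and their groups overlapped in all 10. WT 2, the library with the fewest reads, was the lowest library for 8 of them and KO 1 the highest for 7, and the median was 0.11 without WT 2 and 0.16 without KO 1. P3h4, which encodes a partner of the lysyl hydroxylase and prolyl 3-hydroxylase complexes, had 81.7, 73.5 and 53.2 CPM in KO and 58.4, 43.4 and 45.1 CPM in WT (0.49, SE 0.24, limma adjusted p = 0.493). KO 1 and KO 2 lay above all WT libraries and KO 3 below WT 1. P4ha1, a catalytic subunit of prolyl 4-hydroxylase, had 524, 348 and 476 CPM in KO and 419, 327 and 410.4 CPM in WT (0.21, SE 0.21).

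P4ha2, the second catalytic subunit gene, was the 1 member of this group with a lower KO mean. It had 202, 114 and 168 CPM in KO and 219, 160.0 and 253 CPM in WT (−0.40, SE 0.26), with KO 2 lowest. The shared beta subunit P4hb, also protein disulfide isomerase, had 1073, 811 and 899.8 CPM in KO and 951, 872 and 915 CPM in WT. The groups overlapped fully, with a log2 fold change of 0.01 and a 95% interval of −0.41 to 0.44.

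No ER chaperone or disulfide isomerase gene reached an unadjusted p below 0.05. Of 10, 3 had higher and 7 lower KO means, with a median of −0.03, and 9 were higher under quantile normalization (median 0.21), without KO 2 (0.09) and without WT 1 (0.09). Serpinh1 had 943, 546 and 806 CPM in KO and 956, 760.3 and 672 CPM in WT, and the groups overlapped. Its log2 fold change was −0.08 (SE 0.25, 95% interval −0.63 to 0.48). Hspa5, which encodes the chaperone BiP and is a standard readout of ER stress, had 1140.0, 801 and 890.6 CPM in KO and 1087, 872 and 896 CPM in WT, a log2 fold change of −0.02 (95% interval −0.49 to 0.44). Calr, the gene of the calcium-binding lectin calreticulin, had 1542, 1417 and 1962 CPM in KO and 1878, 1570.2 and 1474.5 CPM in WT (−0.01, 95% interval −0.49 to 0.48). Hsp90b1, which encodes GRP94, had 1357.5, 1001 and 1187 CPM in KO and 1247, 1284.5 and 1236.5 CPM in WT (−0.10, 95% interval −0.54 to 0.34).

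KO 2 was the lowest library for 7 of these 10 genes, these 4 among them. The signs of Serpinh1, Hspa5, Calr and Hsp90b1 turned positive under quantile normalization, with values of 0.17, 0.24, 0.24 and 0.18, none of them past the test. Pdia4, a disulfide isomerase gene, had 343, 272 and 278 CPM in KO and 289.6, 252 and 215 CPM in WT (0.24, SE 0.19). Fkbp14, an ER isomerase gene that acts on collagen, had 65.3, 35.8 and 36.1 CPM in KO and 27.6, 33.5 and 39.3 CPM in WT (0.40, SE 0.30), where KO 1 alone exceeded WT.

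Promoters were searched for the ER stress response element, the letters CCAAT and CCACG with 9 bases between them, on either strand from 250 bases before to 50 after the RefSeq start. Of 43 members with a promoter entry, 5 (11.6%) held it, against 0.181% of 7723 genes. They were Hspa5, Hsp90b1, Calr, Canx and Pdia6, and their log2 fold changes lay between −0.10 and −0.01, or 0.02 to 0.24 under quantile normalization. All 5 were lowest in KO 2. The stretches are shown with both parts of the element in capitals, on the strand of the gene, in the GRCm38.p6 build. Calr carries the element on the opposite strand, and Hsp90b1 carries 2, 1 on each strand.
Hspa5, chr2:34772015-34772053, plus strand: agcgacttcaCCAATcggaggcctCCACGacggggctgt
Canx, chr11:50325790-50325828, minus strand: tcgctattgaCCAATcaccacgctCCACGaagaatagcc
Pdia6, chr12:17266481-17266519, plus strand: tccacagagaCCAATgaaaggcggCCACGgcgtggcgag
Calr, chr8:84847065-84847103, minus strand: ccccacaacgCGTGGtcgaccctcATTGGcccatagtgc
Hsp90b1, chr10:86705523-86705666, minus strand: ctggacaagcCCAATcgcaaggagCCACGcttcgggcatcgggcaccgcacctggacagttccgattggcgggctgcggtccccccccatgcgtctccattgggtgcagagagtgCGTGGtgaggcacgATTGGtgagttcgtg

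The XBP1 motif TGACGTGG was present in the promoters of Sec23a and Sec24d (4.65% of 43 members, against 1.19% of genes), which encode COPII coat subunits with log2 fold changes of 0.20 and 0.18. The ATF4 and CHOP motif TGATGCAA was found in 0 of 43 members, against 0.842% of genes.

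Of the 6 members of the unfolded protein response, 3 had higher and 3 lower means of log2 values in KO, with a median of 0.06, which ran from −0.05 without KO 2 to 0.28 without KO 3. Atf4 (chr15:80255184-80257541, plus strand) encodes the transcription factor downstream of PERK. It had 116, 94.1 and 128 CPM in KO and 163, 162 and 142 CPM in WT. All KO libraries were below all WT libraries, with a log2 fold change of −0.47 (SE 0.19, 95% interval −0.91 to −0.04, limma unadjusted p = 0.0352, limma adjusted p = 0.416, n = 3 per group). Without KO 2 it was −0.35 (limma unadjusted p = 0.0962), and that p was 0.0917 without WT 1 and 0.0942 without WT 2. No opposite-strand exon overlaps Atf4.

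Ddit3, which encodes CHOP, had 99.99, 30.4 and 114 CPM in KO and 72.2, 115 and 159 CPM in WT. KO 2 was far below the other 5 libraries, and without it the log2 fold change went from −0.64 (SE 0.48) to −0.04. Exons of Ddit3 share 81 bases with Mars and Gm4189. Xbp1 had 81.3, 125 and 80.7 CPM in KO and 83.6, 86.1 and 82.1 CPM in WT, so that KO 2 alone was high (0.16, SE 0.22, and −0.05 without KO 2). Ern1 had 7.63, 11.8 and 9.18 CPM in KO and 5.65, 0 and 7.04 CPM in WT, where the 0 of WT 2 allows up to 2.29 CPM for 3 reads. Its log2 fold change of 1.79 (SE 1.10) depends on the pseudocount because of that 0. Every WT value of Ern1 was below 7.35 CPM, the least second highest value of any measured row. The gene could therefore be measured only where KO was high.

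KO 2 was the highest of the 6 libraries for 4 of these 6 genes (Xbp1, Atf6, Eif2ak3 and Ern1) and the lowest for Atf4 and Ddit3. It was also the library with the highest macrophage marker sum, and the part of those cells in its values was not tested.

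The COPII coat and its helpers had higher KO means in 8 of 11 members, with a median of 0.23, and none at an unadjusted p below 0.05. KO 1 was the highest library for 7 and WT 2 the lowest for 6, and the median was 0.05 without KO 1 and 0.13 without WT 2. Sec31a, an outer coat subunit gene, had 175, 126 and 145 CPM in KO and 144.5, 89.1 and 90.3 CPM in WT. The groups overlapped, since WT 1 lay above KO 2, and Sec31a had a log2 difference of 0.49 (SE 0.24, adjusted p = 0.493 with limma). Sar1b, a GTPase that starts coat assembly, had 40.8, 38.2 and 31.8 CPM in KO and 24.5, 16.8 and 34.005 CPM in WT (0.60, SE 0.31). Mia3 was nearly level, with 200.4, 179 and 187 CPM in KO and 199.8, 184 and 194 CPM in WT (−0.03, 95% interval −0.40 to 0.34).

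The 4 genes of the Sec61 channel had a median of 0.00. Sec61a1, the main pore subunit, had 114, 75.5 and 105 CPM in KO and 98.0, 96.0 and 86.2 CPM in WT (0.05, SE 0.21), and KO 2 was lowest. Sec61g had 51.9, 54.4 and 52.0 CPM in KO and 50.3, 51.8 and 62.1 CPM in WT (−0.05, SE 0.21). Both overlapped fully. The log2 fold change was 0.18 (SE 0.24) for Sec61b, the beta subunit, and −0.42 (SE 0.32) for the less abundant alpha paralog Sec61a2. Of Sec61a2's exon bases, 909 overlap Nudt5 on the other strand.

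**Figure D4:**
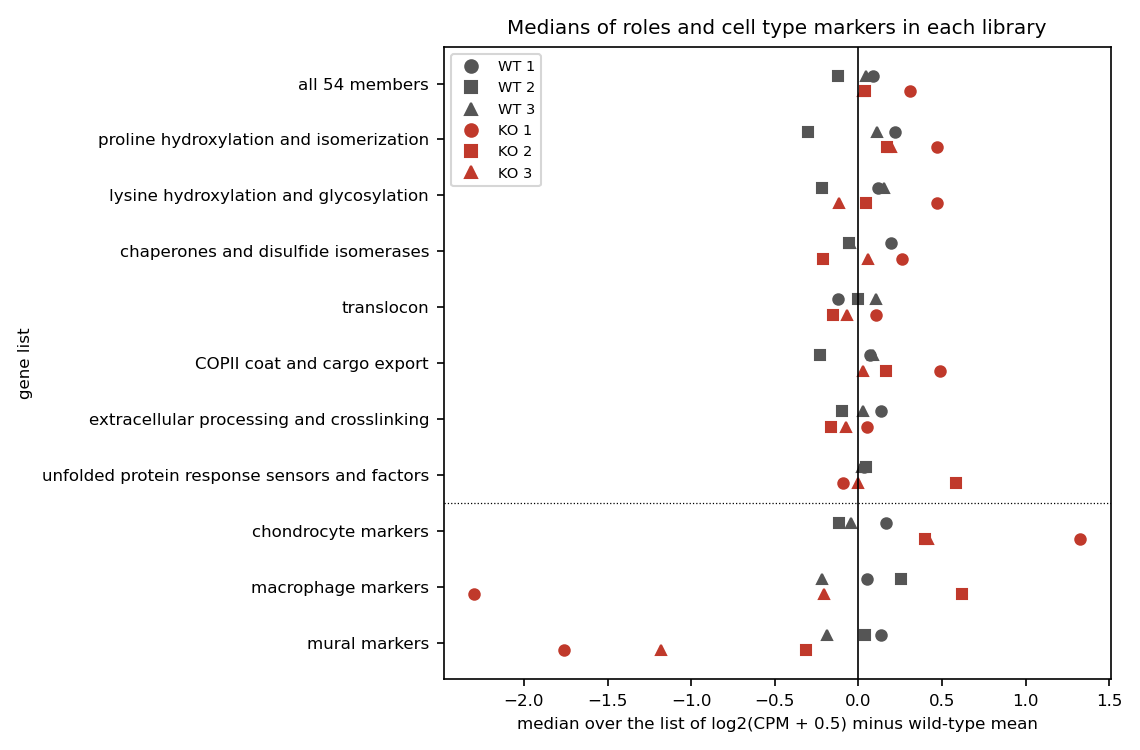
Median over each role of log2(CPM + 0.5) minus the WT mean, per library (WT grey, KO red), with 3 lists of cell type markers below the dotted line. For proline-modifying genes the KO 1 median was 0.47 and that of WT 2 was −0.30, and the marker medians of KO 1 were 1.33 for chondrocytes and −2.30 for macrophages.

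Other genes of the pathway, from lists set by known function, gave 0 calls at a limma adjusted p below 0.05. For the procollagen proteinases and their helpers, 5 of 11 listed genes were measured, 1 higher and 4 lower. The median was −0.40 (−0.23 without KO 1, −0.70 without KO 2). Pcsk6, a proprotein convertase gene, had 44.3, 22.0 and 38.5 CPM in KO and 15.1, 11.4 and 12.3 CPM in WT, 1.35 higher on the log2 scale (SE 0.34, limma adjusted p = 0.277). Bmp1, the C-proteinase that Pcolce and Pcolce2 enhance, had −0.40 (SE 0.28), and the N-proteinase gene Adamts2 −0.70 (SE 0.50).

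Of the fibrillar collagen chains, the cargo of this machinery, 5 of 10 had higher KO means, with a median of −0.16, which was 0.03 under quantile normalization, 0.08 without KO 2 and 0.00 without WT 2. At an unadjusted p below 0.05, 2 were higher (Col11a2 and Col27a1) and 3 lower (Col3a1, Col1a1 and Col5a2), against 4.64% and 6.4% of all genes. The choice of these lists was made with earlier results known. Col11a2 (1.94, SE 0.34, limma adjusted p = 0.176) and Col27a1 (1.38, SE 0.34, limma adjusted p = 0.273), both cartilage collagens, had higher KO means. Col3a1, a collagen of soft connective tissue, had 1981, 1573 and 2277 CPM in KO and 4063, 2785 and 4346 CPM in WT (−0.93, SE 0.26, limma adjusted p = 0.282). Col1a1, the main chain of bone and fibrous tissue collagen, had −0.54 (SE 0.19), and Col5a2 −0.65 (SE 0.28). Col1a2, the more abundant partner chain of Col1a1, went the other way (0.19, SE 0.24). It had 1949.5, 1258 and 1779 CPM in KO and 1273.5, 1778 and 1299 CPM in WT.

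The summed CPM of the 16 proline- and lysine-modifying genes and Serpinh1 was set against that of the 10 fibrillar chains. As a percentage it was 49.7%, 50.9% and 43.3% in KO and 37.1%, 34.8% and 38.7% in WT. The groups did not overlap on this ratio, which was formed after the values had been seen and carries no test. With Col3a1 left out of the chains, the ratio was 62.1%, 66.8% and 57.8% in KO and 57.8%, 49.0% and 67.45% in WT, and the groups overlapped. With each of the other 9 chains left out in turn, the groups did not overlap.

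Of 32 measured genes for chain targeting, signal peptide removal and N-glycosylation, 24 were higher and 8 lower, with a median of 0.20 (0.10 without KO 1), and 2 and 1 had an unadjusted p below 0.05, where 4.64% and 6.4% of all genes did. Srprb, the membrane anchor of the signal recognition particle receptor, had 0.60 (SE 0.25). The other 2 were Srp54c (4.86, SE 1.37), at 0 in WT 1 and WT 2, and Srp54b (−0.46, SE 0.20). Since every measured row had a second highest value of at least 7.35 CPM, Srp54c could be measured only with KO high. Srp54c and Srp54b are near-identical copies between which reads could have been split, so both are uncertain. Of 30 genes for COPII assembly, cargo receptors and retrieval, 19 were higher and 11 lower with a median of 0.07 (15 and 15 with −0.01 without KO 1), and 0 had an unadjusted limma p below 0.05. The smallest p values in that list were those of the cargo receptor gene Lman2 (0.40, SE 0.19), of Sec16b (−2.79, SE 1.44), at 0 in KO 2 and KO 3, and of Trappc3 (0.96, SE 0.56).

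Of 27 genes known as ATF6 and XBP1 targets, 15 were higher and 12 lower with a median of 0.06, which ran from −0.03 without WT 3 to 0.17 without KO 2. Derl3, a gene of ER-associated degradation, had −1.39 (SE 0.46, limma adjusted p = 0.329), and Derl1 had 0.55 (SE 0.25) and Dnajb9 0.78 (SE 0.45). Of 27 genes known as ATF4 and CHOP targets, 7 were higher and 20 lower with a median of −0.25. Slc7a11, the cystine transporter gene, had 75.2, 85.2 and 86.9 CPM in KO and 119, 127 and 149 CPM in WT (−0.67, SE 0.19, limma adjusted p = 0.283). Psat1, a serine synthesis gene, had 28.2, 16.2 and 25.7 CPM in KO and 40.8, 47.2 and 41.6 CPM in WT (−0.91, SE 0.28, limma adjusted p = 0.307). Aars had 92.4, 51.0 and 114 CPM in KO and 118, 117 and 124 CPM in WT (−0.56, SE 0.29). KO 2 was the lowest library for 18 of the 27, with a median difference from WT of −0.73, against 0.07 in KO 1 and −0.05 in KO 3. Without KO 2, 12 were higher and 15 lower and the median was −0.08, and without KO 1 it was −0.40.

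**Figure D5:**
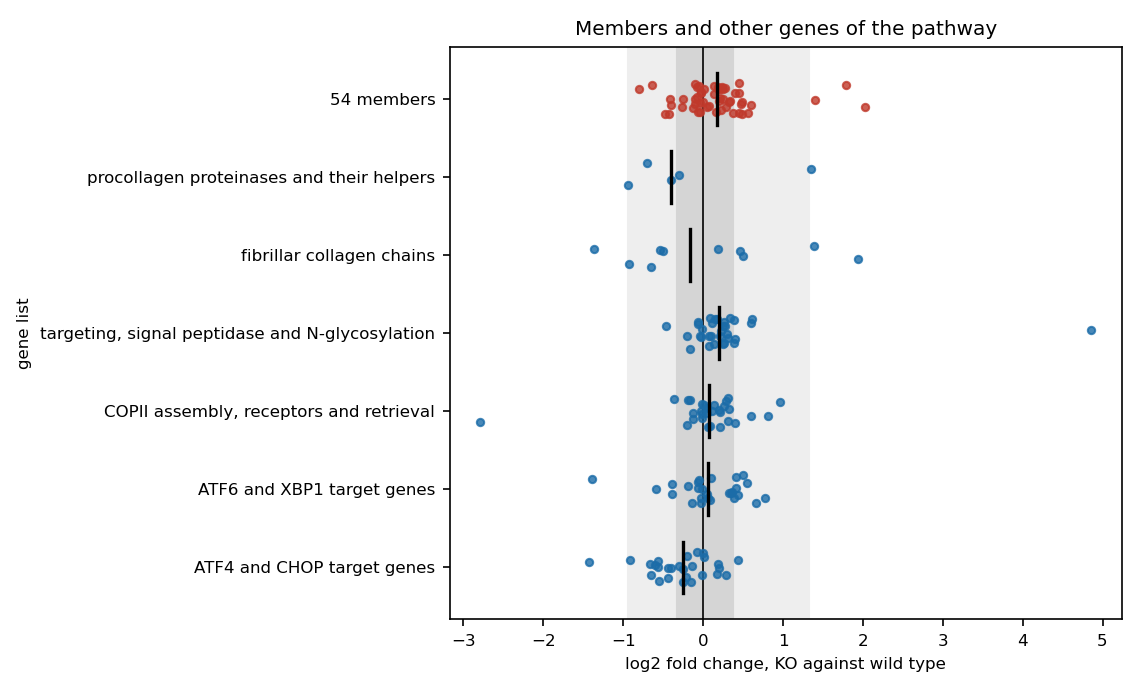
Log2 fold change of KO against WT for the 54 members (red) and the genes of 6 further lists (blue), with each list's median as a black bar. The dark and light grey bands hold the middle 50% and 90% of all 10189 genes, −0.33 to 0.37 and −0.94 to 1.32.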

How the data were processed

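Cells freed from cartilage with collagenase were cultured, and a stranded kit for total RNA was used for the libraries, per the labels' protocols. Per the submitters' processing notes, bcl2fastq, cutadapt 1.18, HISAT2 2.1.0, StringTie 1.3.5, edgeR and the build mm10 were used. How the counting used strand is not given in the sources consulted, and the 20 members whose exons overlap an opposite-strand gene carry that uncertainty. Per the table's name, the authors scaled read counts to TMM-normalized CPM, and the deposited signal is on that scale. The design had assumed plain CPM, and the same log-scale test was kept. Values were whole multiples of a step of 0.382 to 0.762 CPM in 100% of cases (tolerance 0.001 reads), so reads could be recovered.

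KO and WT (n = 3 each) were compared on log2(CPM + 0.5) with limma 3.58.1 (R 4.3.3), intensity trend on, two-sided, Benjamini-Hochberg over 10189 genes, called below 0.05. A fold change on this scale can understate the change of low genes. With a 0 in a library it can exceed the ratio of the mean CPM. Ern1 had means of 9.52 CPM in KO and 4.23 CPM in WT, but a fold change of 3.465. In every row the second highest value was at least 7.35 CPM. edgeR 4.0.16, DESeq2 1.42.0 and limma-voom were run on recovered reads as alternatives, beside other pseudocounts, a filter on low genes, other scalings, a replicate block and leaving out each library. The fits were run on simulated counts with known changes and the same spread for all genes. Only the sign and median size of those changes were required, and outlying libraries were not simulated. Named genes were the members at an unadjusted p below 0.05, the 2 of smallest p and the 2 of highest mean in each role, a set of 9 well-known members, the 3 of smallest p per pathway list and the 2 per marker list. Other members were named after their values were seen, and the members and lists were chosen with earlier results of these data known. Exon lengths, 3′ UTRs and overlaps came from GENCODE M21 (9814 of 10189 symbols, all 54 members), and miRNA and promoter sequences from RefSeq.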

Additional observations from a re-analysis of the deposited data

How the results depend on the processing

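Under every alternative run, 0 members were called. The changes below are those of the counts, medians and named members, changes of the lists stand beside them in the report, and their cause was not tested. Genes called higher and lower over the whole table (0 and 1 in the report) were 7 and 3 with limma without trend, 27 and 81 with DESeq2, 0 and 2 with pseudocount 2, 0 and 2 with edgeR, and 0 and 2 without WT 1 and KO 2 together, an alternative chosen after seeing the data. Leaving out 1 library gave 0 to 7 higher and 0 to 25 lower, both highest without KO 2. Deviations from the group means correlated at 0.03, 0.08 and −0.06 between same-numbered KO and WT libraries. Between differently numbered ones they correlated at −0.14 to 0.12, so the numbers were not taken to pair the libraries. A replicate block gave 0 genes called higher and 0 lower, and moved the members at an unadjusted p below 0.05 to 2 higher and 1 lower.

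Members at an unadjusted p below 0.05 (1 higher, 2 lower in the report) were 2 higher with median-ratio scaling, 2 higher with limma-voom, 2 higher and 1 lower with DESeq2, 3 and 1 with quantile normalization, 1 lower with limma without trend, and 6 and 1 without WT 1 and KO 2. Leaving out 1 library gave 1 to 5 higher and 1 to 2 lower. Over all settings, 3.32% to 5.14% of all genes tested were higher and 3.77% to 7.8% lower at that p. Loxl2 and Pcolce2 were among the members in every setting, and Atf4 was not under quantile normalization, without trend, with the block, with DESeq2, or without KO 2, WT 1 or WT 2.

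With 1 library left out, medians ranged from 0.0244 (without KO 1) to 0.26 for all members, 0.11 to 0.44 for proline-modifying genes and −0.28 to −0.0165 for extracellular genes. Under quantile normalization the extracellular median was −0.0768 and the chaperone median 0.21, which was 0.23 without WT 1 and KO 2. Of 28 named members, 17 kept their sign throughout. The others had values of −0.10 to 0.25 in the report. Under quantile normalization Calr had 0.24, Hspa5 0.24, Hsp90b1 0.18, Serpinh1 0.17 and Mia3 0.0802. Without WT 1 and KO 2 they had 0.19, 0.19, 0.0102, 0.29 and 0.0345, and Xbp1 −0.0529. Calr was 0.0084 with median-ratio scaling and 0.0138 with DESeq2, where Hspa5 was 0.0036. With 1 library left out, Calr ran from −0.14 to 0.0945, Hsp90b1 from −0.20 to 0.0153, Hspa5 from −0.17 to 0.0891, Lox from −0.0761 to 0.58, Mia3 from −0.0745 to 0.0073, P4hb from −0.0945 to 0.11, Plod2 from −0.12 to 0.29, Sec61a1 from −0.0652 to 0.23, Sec61g from −0.10 to 0.0474, Serpinh1 from −0.25 to 0.15 and Xbp1 from −0.05 to 0.27. WT 2 had the fewest reads, and the limit of 3 reads for a count of 0 is 2.29 CPM there, against 1.145 CPM in KO 1.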

Other observations

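The 10 measured fibroblast markers, 5 higher and 5 lower on average, summed to 6098 to 7625 CPM in KO and 7977 to 9544 CPM in WT. Fbn1, which encodes the microfibril protein fibrillin 1, had 76.3, 168 and 99.7 CPM in KO and 422, 286 and 526 CPM in WT, without overlap (log2 fold change −1.87, SE 0.32, limma adjusted p = 0.164). The 7 measured osteoblast markers had higher KO means, 6 of 7 without KO 2, KO 3, WT 1 or WT 3 and 5 of 7 without WT 2. They summed to 6719.7 CPM (KO 1), 19947 CPM (KO 2) and 7000.4 CPM (KO 3), against 5344 to 7382 CPM in WT, and Spp1 alone gave 17015 CPM in KO 2. Of these, Ibsp, which encodes bone sialoprotein, had 3620.3, 2628 and 3614 CPM in KO and 858, 1658.5 and 526 CPM in WT (1.84, SE 0.38, limma adjusted p = 0.238). Bglap and Bglap2, the osteocalcin genes, had 0 reads in every WT library, and Bglap2 had 7.95 to 12.2 CPM in KO. In every measured row the second highest value was at least 7.35 CPM. Genes at 0 in WT could therefore be measured only where KO was high, and both are counted among the 7.

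Among genes of the other marker lists with the smallest p, Col9a2 of chondrocytes had 45.035, 57.3 and 40.4 CPM in KO and 8.17, 17.5 and 17.6 CPM in WT. For macrophages, the KO minus WT differences on the log2 scale were −1.66 (SE 0.47) for Mrc1 and −1.71 (SE 0.76) for Cx3cr1. Over the 17 macrophage markers 3 were higher and 14 lower, 7 and 10 with edgeR, and 12 and 5 with a median of 0.32 without KO 1. For mural cells, the differences were −1.93 (SE 0.43) for Cnn1 and −1.63 (SE 0.40) for Acta2. Of the 8 measured mural markers 6 were lower and 2 higher, the latter Cspg4 and Pdgfrb. Cspg4 had 38.5, 25.5 and 58.1 CPM in KO and 20.1, 17.5 and 15.2 CPM in WT, without overlap. None of these passed limma's adjustment over all genes.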
